A study of Mus musculus with 8 samples.

Results

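Small nucleolar RNAs and small Cajal body RNAs were described in haematopoietic stem cells with and without the bone morphogenetic protein receptor Bmpr2. The members are all probe sets of the annotated table whose only gene symbol begins with Snora, Snord or Scarna and a digit. They comprise 89 of the 23586 probe sets with 1 symbol, and 63 of the 21104 genes. Of the 63 genes, 24 are box H/ACA RNAs (27 probe sets), 36 are box C/D RNAs (58 probe sets) and 3 are Cajal body RNAs (4 probe sets). Among the 9 genes with several probe sets, Snord116 alone has 19, which hold 2 distinct sets of values, and 5 genes have 2 identical rows each. Each gene is therefore represented below by its probe set with the highest mean over all arrays.

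The 4 KO pools came from untreated C57Bl/6 mice of genotype Vav-Cre;BMPR-II(fl/fl), in which Cre driven by a Vav transgene in blood cells removes exons 4 and 5 of Bmpr2. The 4 WT pools came from untreated littermates lacking Vav-Cre. Of the 3 mice in each of WT pools 1 to 4, 1, 0, 1 and 2 were BMPR-II(fl/fl), 2, 3, 1 and 1 carried 1 floxed allele, and WT pool 3 held 1 mouse with none. Each pool combined bones of 3 mice, from which cells that were lineage-negative, Sca-1 and Kit positive, high in CD9, positive for CD150 and negative for CD48 were sorted. The series' design, by contrast, names 4 mice in each group. Age of the animals is not given in the sources used. Cre was present in all KO pools and in no WT pool, so its effect and that of losing Bmpr2 cannot be told apart.

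Small nucleolar RNAs are short non-coding RNAs of the nucleolus that pair with ribosomal RNA. Box C/D RNAs, bound by fibrillarin, Nop56, Nop58 and Snu13, guide methylation of ribose. Box H/ACA RNAs, bound by dyskerin, Gar1, Nhp2 and Nop10, guide conversion of uridine to pseudouridine. Cajal body RNAs do the same on the small nuclear RNAs of the spliceosome. Most of these RNAs in vertebrates have no promoter of their own: they are cut out of introns of host genes, often genes of ribosomal proteins or translation factors. A probe inside such an RNA can detect the finished RNA and the unspliced host transcript. The levels below do not tell these apart, and the part of each in them was not tested.

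Array medians over all probe sets were between 5.58 and 5.63 (log2) in KO pools and between 5.63 and 5.69 in WT pools. This small shift goes the same way as the members' differences below, and the effect of centring is given at the end. Bmpr2 itself averaged 6.87 ± 0.26 in KO pools and 7.65 ± 0.44 in WT pools (log2, SD, n = 4 each), with 3 of 4 KO pools below every WT pool, an exact permutation p of 0.0571 and an adjusted p of 0.972. Its probe set can cover exons outside the deleted part, so it checks the labels only in part. Transcripts of the sorting gate were present, with Kit at 10.19 ± 0.30 in KO pools and 10.35 ± 0.18 in WT pools Ly6a (Sca-1) at 8.78 ± 0.16 in KO pools and 8.87 ± 0.38 in WT pools, Cd9 at 8.91 ± 0.65 in KO pools and 8.91 ± 0.62 in WT pools, and Slamf1 (CD150) at 7.17 ± 0.35 in KO pools and 6.90 ± 0.23 in WT pools. Cd48, which the gate excludes, averaged 5.17 ± 0.72 in KO pools and 4.99 ± 0.65 in WT pools. All 4 T cell, 3 B cell and 2 natural killer cell markers had group means below 6. Of the 8 granulocyte and monocyte markers 6 had higher means in KO, 3 of them by at least 1.5-fold, and their sum was between 49.96 and 58.2 in KO pools and between 47.1 and 56.6 in WT pools. Ly6g, a granulocyte marker, averaged 3.94 ± 0.42 in KO pools and 3.85 ± 0.06 in WT pools, while S100a9, a neutrophil protein gene, averaged 9.52 ± 1.10 in KO pools and 8.87 ± 1.46 in WT pools. All 5 erythroid markers had higher means in KO, and their sum was between 32.8 and 35.4 in KO pools and between 31.5 and 34.1 in WT pools. All 3 megakaryocyte markers did too, with sums between 27.0 and 28.9 in KO pools and between 25.3 and 27.9 in WT pools. Among them Gp1ba, a platelet membrane glycoprotein gene, averaged 7.63 ± 0.36 in KO pools and 7.02 ± 0.23 in WT pools (0.60, limma unadjusted p = 0.00733, adjusted p = 0.972). The smallest and the median difference of the megakaryocyte markers were 0.07 and 0.18. The 2 endothelial markers also had higher means in KO, where 48.7% of all genes had. Of 7 genes listed for the stem cell gate 5 had lower means in KO, with a median difference of -0.10. The part of other cells in the values below was not tested.

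No small nucleolar or Cajal body RNA passed the test of KO against WT. With limma fitted over all probe sets with 1 symbol and p adjusted by the Benjamini-Hochberg method, 0 of 63 members had an adjusted p under 0.05, where percent called over all 21104 genes was 0, and the lowest adjusted p among members was 0.972. At an unadjusted p under 0.05, 4 members were lower in KO (Snord57, Snora33, Snora43 and Snora31) and 1 was higher (Snord15a). Over all genes 2.26% were lower and 2.25% higher by the same rule. In none of the 63 genes were the pools of the groups fully apart, where 1.5% of all genes had every KO pool below every WT pool and 1.09% had every KO pool above. The design allows no permutation p under 0.0286.

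Most members had a lower mean in KO, by small amounts. This was so for 50 of 63 genes, or 79.4%, where 51.3% of all genes were lower by any size. In such pools fewer cells that contain an RNA and less of that RNA per cell cannot be told apart. The median difference was -0.17 over the members (log2, KO minus WT) and -0.0043 over all genes. For box H/ACA RNAs, 19 of 24 were lower with a median of -0.12, for box C/D RNAs 29 of 36 with -0.22, and for Cajal body RNAs 2 of 3 with -0.23. Counted by probe set, the medians were -0.12, -0.07 and -0.23 in that order, since the many probe sets of Snord116 weigh on the box C/D class. The members of this list are not independent of each other and the list was not tested. For comparison, 188 of 302 microRNA genes, another class of short RNAs, were lower in KO, with a median of -0.05. Their median level was 4.23, against 7.10 for the members (log2), so the classes are unlike in level. Of 7393 genes at levels from 5.94 to 8.07, the middle range of the members, 44.3% were lower, with a median of 0.03. Among the 31 members in that range 26 were lower, with a median of -0.19. Without KO pool 4 the box C/D gene median was -0.13, and without KO pool 3 the box H/ACA gene median was -0.08. The Cajal body median was -0.09 without KO pool 3 and also -0.09 without WT pool 2.

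**Figure D1:**
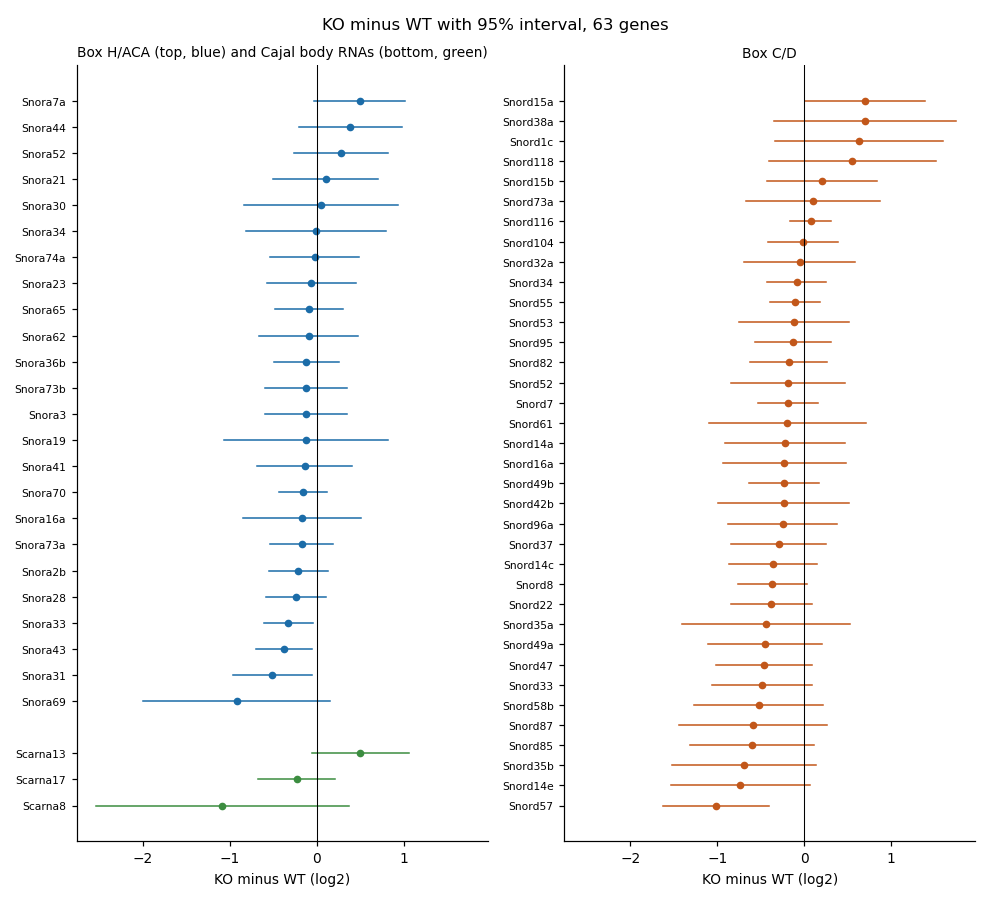
Difference of KO minus WT (log2, horizontal axis) with its 95% interval from limma for each of the 63 genes, box H/ACA and Cajal body RNAs at left and box C/D RNAs at right. Most points lie left of 0, from -1.09 for Scarna8 to 0.70 for Snord15a, and most intervals cross 0.

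Among box H/ACA RNAs, the 5 with the smallest p in the lower direction were Snora33, Snora43, Snora31, Snora69 and Snora28. Snora33, which in human cells guides pseudouridylation of small-subunit ribosomal RNA and which lies within Rps12, was at 7.93, 8.28, 7.81 and 7.80 in KO pools 1 to 4, against 8.31, 8.22, 8.18 and 8.41 in WT pools 1 to 4 (log2). All KO pools but pool 2 lay below the WT pools. The difference was -0.33 (SE 0.13, limma unadjusted p = 0.0267, adjusted p = 0.972), 1.25-fold lower, with an exact permutation p of 0.0857.

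Snora43, within the non-coding gene Snhg7, was at 6.83, 7.09, 6.40 and 6.65 in KO pools against 7.05, 7.18, 6.99 and 7.26 in WT pools. Again KO pool 2 alone reached into the WT range, and the difference was -0.38 (SE 0.15, limma adjusted p = 0.972). Snora31, within Tpt1, the gene of a translationally controlled tumour protein, was at 9.18, 9.54, 9.32 and 8.69 in KO pools against 9.43, 9.47, 9.70 and 10.18 in WT pools. KO pool 2 overlapped WT once more, KO pool 4 was lowest, and the difference was -0.51 (SE 0.21, limma adjusted p = 0.972), 1.42-fold lower.

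Snora69, within Rpl39 on the X chromosome, had the largest difference of its class. It stood at 6.26, 4.00, 5.71 and 5.40 in KO pools, against 5.51, 7.40, 6.35 and 5.78 in WT pools, so KO pool 2 was very low, WT pool 2 very high, and the others overlapped. The difference was -0.92 (SE 0.49), 1.89-fold lower, and it came to -0.47 with KO pool 2 left out and -0.54 with WT pool 2 left out. It was the only box H/ACA RNA at least 1.5-fold apart. Snora28, within Eif5, averaged 7.84 ± 0.31 in KO pools and 8.08 ± 0.16 in WT pools (SD, n = 4 each), a difference of -0.24 (SE 0.16) that ran from -0.39 with KO pool 2 left out to -0.16 with KO pool 3 left out.

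Higher means in KO were found for 5 box H/ACA RNAs, none at an unadjusted p under 0.05. Snora7a, within Rpl32, was at 8.72, 9.51, 8.18 and 8.62 in KO pools against 8.10, 8.21, 8.21 and 8.53 in WT pools. The values of 3 KO pools lay above all WT pools, with KO pool 2 highest, and the difference was 0.49 (SE 0.24), 1.41-fold higher. Without KO pool 2 it was 0.24. Snora44, within Snhg12, differed by 0.39 (SE 0.27), which was 0.14 without KO pool 4. Snora52, within Rplp2, differed by 0.28 (SE 0.24), which was 0.04 without WT pool 2. Snora21 (0.10, SE 0.28) and Snora30 (0.05, SE 0.40) had intervals wide on both sides of 0, and both turned sign without KO pool 2 or WT pool 2, as did Snora30 without WT pool 4.

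The U17 RNAs Snora73a and Snora73b, box H/ACA RNAs that act in cleavage of the ribosomal RNA precursor, lie together within Snhg3. Snora73a averaged 7.53 ± 0.29 in KO pools and 7.70 ± 0.23 in WT pools, a difference of -0.17 (SE 0.16), or -0.03 without KO pool 3. Snora73b averaged 7.33 ± 0.50 in KO pools and 7.45 ± 0.14 in WT pools, a difference of -0.12 (SE 0.21), which turned to 0.05 without KO pool 3. Neither difference exceeded the spread between pools.

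**Figure D2:**
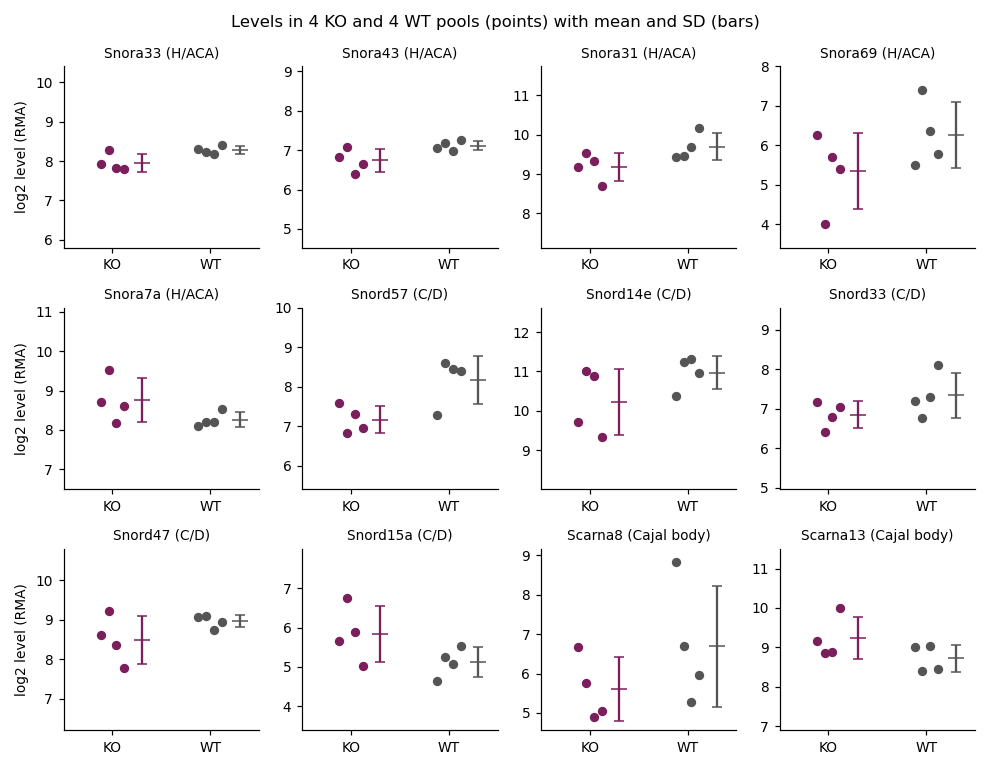
Levels (log2, RMA) of 12 members in the 4 KO and 4 WT pools, with each point a pool and the bar beside it the mean and SD. Every panel spans the same number of log2 units, and in each the KO and WT pools overlap, with Snord57 in WT pool 1 at 7.28 among the KO values.

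Snord57 had the smallest p of all members. It is a box C/D RNA that in human cells guides methylation of small-subunit ribosomal RNA, and it lies within Nop56, the gene of a box C/D core protein. The RNA stood at 7.58, 6.82, 7.32 and 6.95 in KO pools 1 to 4, against 7.28, 8.60, 8.45 and 8.40 in WT pools 1 to 4. WT pools 2, 3 and 4 stood above all KO pools, while WT pool 1 lay among them. With means of 7.17 ± 0.34 in KO pools and 8.18 ± 0.61 in WT pools (SD, n = 4 each), the difference was -1.01 (SE 0.28, 95% interval -1.62 to -0.41), 2.02-fold lower, with an unadjusted p of 0.00381 and a limma adjusted p of 0.972. The exact permutation p was 0.0857. In the authors' deposited table Snord57 and Snora33 were the 2 members with p under 0.05 before adjustment, at 0.0272 and 0.039.

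The other box C/D RNAs with the smallest p in the lower direction were Snord8, Snord14e, Snord33 and Snord47. Snord14e is a copy of U14, which is needed for processing of small-subunit ribosomal RNA, and lies within the chaperone gene Hspa8. It was at 9.72, 11.01, 10.88 and 9.33 in KO pools against 10.37, 11.24, 11.31 and 10.96 in WT pools. KO pools 1 and 4 lay below all WT pools and KO pools 2 and 3 among them, with a difference of -0.74 (SE 0.36), or -0.44 without KO pool 4. Snord8 averaged 6.45 ± 0.11 in KO pools and 6.81 ± 0.40 in WT pools, a difference of -0.37 (SE 0.18), or -0.19 without WT pool 2.

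Snord47 lies within Gas5, a non-coding gene. It was at 8.62, 9.23, 8.37 and 7.77 in KO pools against 9.07, 9.09, 8.75 and 8.96 in WT pools. Values of 3 KO pools were below all WT pools, but KO pool 2 was the highest of all, and the difference was -0.47 (SE 0.25), or -0.22 without KO pool 4. By size, 5 box C/D RNAs were at least 1.5-fold lower in KO: Snord57, Snord14e, Snord35b (-0.69, SE 0.37), Snord85 (-0.60, SE 0.32) and Snord87 (-0.59, SE 0.38). With 1 pool left out, the difference was -0.38 for Snord35b without KO pool 2, -0.36 for Snord85 without WT pool 2 and -0.13 for Snord87 without KO pool 4. Over all members 7 of 63 were at least 1.5-fold lower and 3 at least 1.5-fold higher, where 0.351% and 0.261% of all genes were. Their spread was wide too, as given further on.

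Rpl13a holds 4 box C/D RNAs in its introns, Snord32a, Snord33, Snord34 and Snord35a, of which Snord32a, Snord33 and Snord35a are known from cultured cells to act in death caused by excess fatty acids. All had lower means in KO but by unlike amounts. Snord33 was at 7.17, 6.41, 6.78 and 7.05 in KO pools against 7.19, 6.77, 7.29 and 8.12 in WT pools, a difference of -0.49 (SE 0.26), with WT pool 4 far above the rest, and -0.23 without that pool. Snord35a was at 6.82, 6.11, 5.10 and 4.78 in KO pools against 5.59, 5.69, 7.02 and 6.28 in WT pools, a difference of -0.44 (SE 0.44), with overlap in both directions, and -0.14 without KO pool 4. Snord34 (-0.09, SE 0.15) and Snord32a (-0.05, SE 0.29) were close to 0. Rpl13a itself averaged 12.44 ± 0.13 in KO pools and 12.53 ± 0.07 in WT pools, a difference of -0.10 (SE 0.10).

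The 5 box C/D RNAs with the smallest p in the higher direction were Snord15a, Snord38a, Snord1c, Snord118 and Snord15b. Snord15a, which in human cells guides methylation of large-subunit ribosomal RNA and which lies within Rps3, was at 5.66, 6.75, 5.88 and 5.03 in KO pools against 4.64, 5.25, 5.08 and 5.54 in WT pools. Of the KO pools, 3 stood above every WT pool and KO pool 4 among them. The difference was 0.70 (SE 0.31, 95% interval 0.01 to 1.39, limma unadjusted p = 0.0473, adjusted p = 0.972), 1.63-fold higher, and it was 0.40 without KO pool 2. The exact permutation p was 0.143, and the interval draws on the variance of all genes. Snord15b of the same host differed by 0.20 (SE 0.29).

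Snord38a was at 7.06, 7.90, 6.55 and 5.10 in KO pools against 6.49, 6.08, 5.58 and 5.66 in WT pools, a difference of 0.70 (SE 0.48). KO pools held both its highest and its lowest value, and without KO pool 2 the difference was 0.29. Snord1c, within Snhg16, differed by 0.63 (SE 0.44), which came to 0.33 with KO pool 3 left out and 0.34 with WT pool 2 left out. Snord118, or U8, which is transcribed from its own promoter and acts in maturation of large-subunit ribosomal RNA, was at 6.19, 5.45, 6.29 and 6.64 in KO pools against 6.26, 4.13, 6.35 and 5.61 in WT pools. WT pool 2 alone was low: the difference of 0.55 (SE 0.44) was 0.07 without that pool. Snord116, the imprinted box C/D cluster known for its expression in brain, averaged 3.12 ± 0.11 in KO pools and 3.04 ± 0.13 in WT pools, a difference of 0.08 (SE 0.11).

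The 3 Cajal body RNAs went different ways. Scarna13, which in human cells guides pseudouridylation of spliceosomal RNAs and which lies within Snhg10, was at 9.15, 8.86, 8.89 and 10.01 in KO pools against values between 8.39 and 9.04 in WT pools, a difference of 0.50 (SE 0.25) that was 0.24 without KO pool 4. Scarna8, another such guide in human cells, within Haus6, was at 6.68, 5.77, 4.90 and 5.05 in KO pools against 8.83, 6.71, 5.27 and 5.95 in WT pools. Its difference of -1.09 (SE 0.66) was the largest among all members, rested on WT pool 1, and was -0.37 without that pool. Scarna17 averaged 10.31 ± 0.37 in KO pools and 10.54 ± 0.31 in WT pools, a difference of -0.23 (SE 0.20), or -0.09 without WT pool 2. None of these RNAs had an unadjusted p under 0.05.

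The pools differed in how their members stood as a group. The mean deviation of the 63 genes from their own 8-pool means was 0.03, 0.01, -0.10 and -0.27 (log2) in KO pools 1 to 4, against 0.05, 0.12, 0.08 and 0.08 in WT pools 1 to 4. All WT pools lay above all KO pools by this mean, but KO pools 1 and 2 were close to WT and KO pool 4 stood apart as the lowest. KO pool 4 held the lowest of the 8 values in 21 of 63 genes, and WT pool 2 the highest in 16 and the lowest in 10. Over all genes KO pool 4 held the lowest value in 12.8%, and WT pool 2 the highest in 18.2% and the lowest in 17.2%. Over all genes the mean deviation stayed between -0.01 and 0.02.

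The low value of KO pool 4 came mainly from box C/D RNAs. Their mean deviation was 0.05, -0.07, 0.04 and -0.40 in KO pools 1 to 4 against 0.01, 0.16, 0.08 and 0.14 in WT pools 1 to 4. For box H/ACA RNAs it was -0.02, 0.13, -0.24 and -0.10 in KO pools against -0.01, 0.05, 0.14 and 0.04 in WT pools, so here KO pool 3 was lowest and KO pool 2 was among the WT values. The classes therefore did not share their lowest pool. WT pool 2 also stood apart in marker lists: its mean deviation was -0.72 for granulocyte and monocyte markers and -0.41 for erythroid markers. Other pools did so as well, with KO pool 2 at 0.67 for granulocyte and monocyte markers and 0.38 for erythroid markers, and WT pool 1 at -0.65 for megakaryocyte markers. The array of WT pool 2 had the lowest median correlation with the other arrays, 0.984, where the others had 0.987 to 0.989. The part of the pools' make-up in the members' values was not tested.

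**Figure D3:**
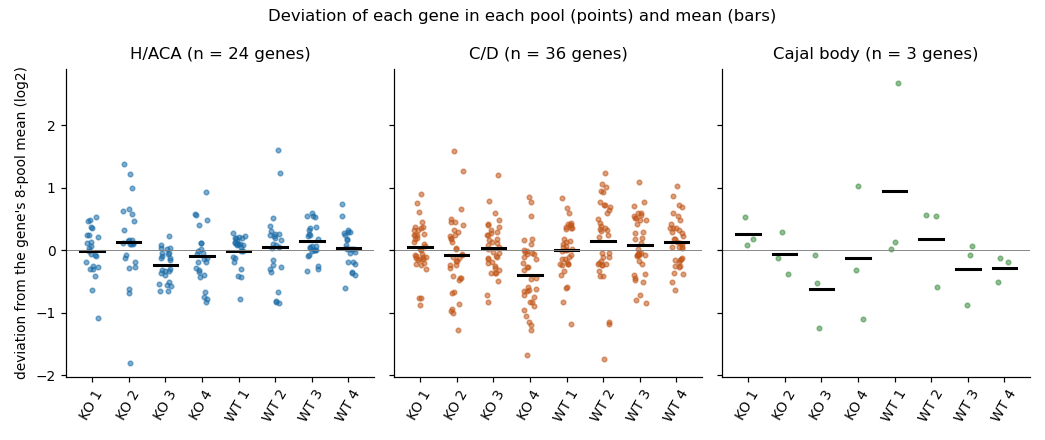
Deviation of each gene from its mean over the 8 pools (log2, vertical axis) in each KO and WT pool, for 24 box H/ACA, 36 box C/D and 3 Cajal body RNAs, with bars at the mean of the pool. The box C/D bar of KO pool 4 lies at -0.40, below all other pools, while KO pool 3 is lowest for box H/ACA RNAs.

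Members varied far more between pools of the same group than other genes did. The residual SD, the spread between pools after taking out the group means, had a median of 0.46 over the 63 members and 0.19 over all genes (log2). By class the median was 0.41 for box H/ACA RNAs, 0.52 for box C/D RNAs and 0.45 for Cajal body RNAs. Among genes of like level, within the middle range of the members' levels from 5.94 to 8.07, the median was 0.49 over 31 members and 0.22 over 7393 genes. Across 62 members the Spearman correlation of level with residual SD was -0.37, as a description over points that share the same arrays. The members with the largest residual SD were Scarna8 (1.23), Snora69 (0.90), Snord38a (0.88), Snord118, Snord35a and Snord1c (0.81 each) and Snora19 (0.79). Their intervals are among the widest by construction, since the intervals are computed from this spread.

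**Figure D4:**
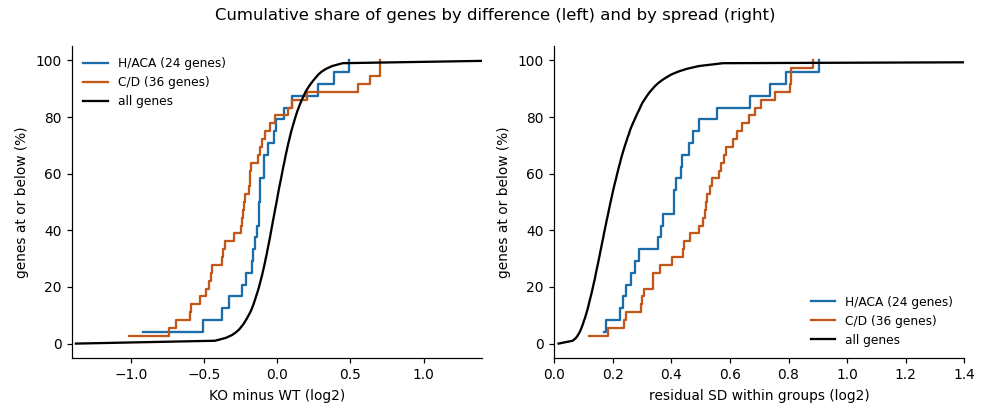
Cumulative share of genes (%, vertical axis) by KO minus WT difference (log2, left) and by residual SD within groups (log2, right) for box H/ACA RNAs, box C/D RNAs and all genes. Both classes lie left of all genes in the difference over most of the range, with medians of -0.12 and -0.22 against -0.0043, and right of all genes in spread, with medians of 0.41 and 0.52 against 0.19.

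Length and class went together among the members. In the mouse gene table of assembly GRCm38.p6, 35 box C/D RNAs measured from 53 to 148 bases with a median of 74, and 24 box H/ACA RNAs from 56 to 205 bases with a median of 122. Across 62 members the Spearman correlation of length with the KO minus WT difference was 0.34, and within the classes it was 0.14 for box C/D and 0.12 for box H/ACA. These are descriptions over genes that share arrays, and length and class were not separated.

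By position in that table, which gives no strand, 57 of 63 members lie inside exactly 1 other gene, 4 inside several and Snord118 inside none, while Snord116 was not in the table. Ribosomal protein genes hold 23 of the members, other coding genes 20 and non-coding genes 14. Members within other coding genes were lower in KO in 19 of 20 cases (median -0.20), those within ribosomal protein genes in 16 of 23 (median -0.11) and those within non-coding genes in 11 of 14 (median -0.17). The share over all genes was 51.3%. For members within other coding genes, KO pool 4 was lowest and WT pool 2 highest. Their mean deviation was -0.06, 0.06, -0.17 and -0.47 in KO pools 1 to 4. In WT pools 1 to 4 it was -0.03, 0.36, 0.17 and 0.13. The differences between these types of host were not tested.

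Differences of the measured host genes between the groups were small. A host was measured for 43 members, in 35 distinct genes. Of the 14 members within non-coding genes, only Snord1c had a measured host, Snhg16. The host differences ran from -0.17 to 0.24 with a median of -0.04. Their residual SD was 0.10 at the median, against 0.46 for the members. The median level was 11.89 over these hosts and 7.10 over the members (log2). With spreads and levels so unlike, the size of a small RNA's difference and that of its host cannot be set against each other. Nop56, the host of Snord57, averaged 9.82 ± 0.18 in KO pools and 9.86 ± 0.15 in WT pools, a difference of -0.04 (SE 0.12). Tpt1, the host of Snora31, differed by -0.04 (SE 0.10), Rps12, the host of Snora33, by -0.05 (SE 0.09), and Rps3, the host of Snord15a and Snord15b, by -0.04 (SE 0.10). Eif3a, a translation initiation factor gene that holds Snora19, was the only measured host with an unadjusted p under 0.05, at 9.87 ± 0.12 in KO pools and 9.62 ± 0.08 in WT pools (0.24, SE 0.10, limma adjusted p = 0.972). Snora19 itself differed by -0.13 (SE 0.43).

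**Figure D5:**
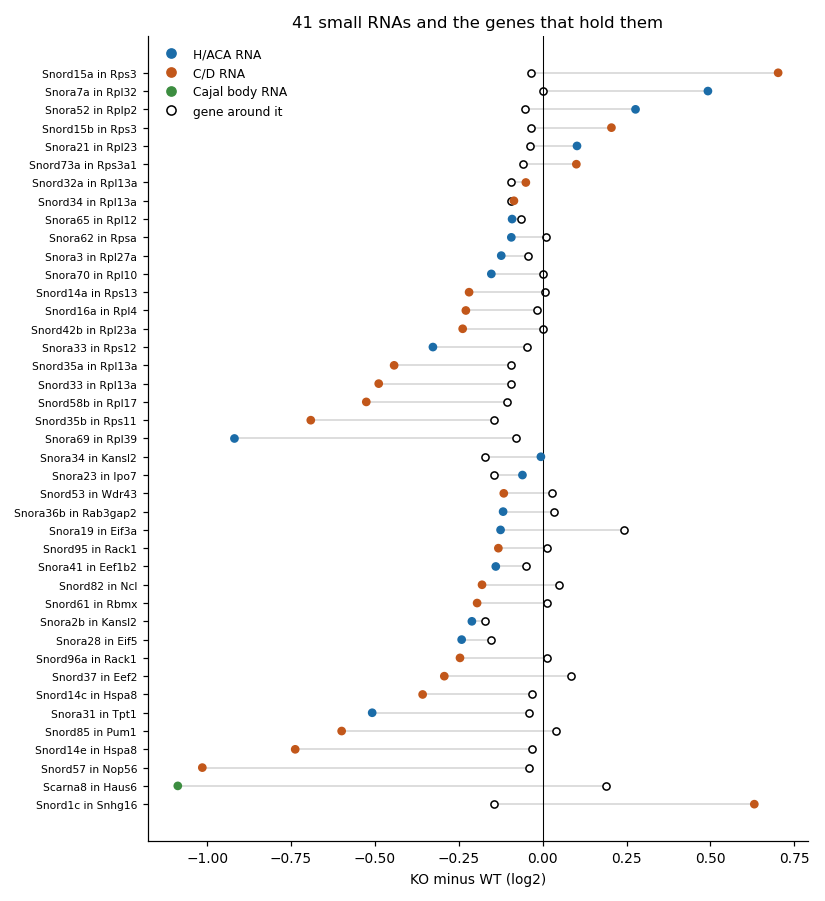
Difference of KO minus WT (log2, horizontal axis) for 41 of the 43 small RNAs (filled points, by class) and for the gene around each (open circles), joined by lines and grouped by the type of host. The open circles stay between -0.17 and 0.24, while the small RNAs run from -1.09 to 0.70.

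Small RNAs of the same host did not always stand on the same side. Of 9 hosts with several members, 7 had all of them on the same side. Of all 63 members 79.4% were lower in KO, so members of unlike hosts would often share a side too. Snhg12 had members on both sides, Snora44 (0.39) and Snora16a (-0.16). Hspa8 held Snord14e (-0.74) and Snord14c (-0.36), a non-coding gene, 2410006H16Rik, held Snord49a (-0.45) and Snord49b (-0.23), and Rps3 held Snord15a (0.70) and Snord15b (0.20).

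An intronic small RNA is made only when its host is transcribed, so the promoters below are those of the hosts of Snord57, Snora33 and Snora31, 3 of the 4 members lower at an unadjusted p under 0.05, and of Rpl13a with its 4 RNAs. Hosts are known for a run of pyrimidines at the start of the transcript, a feature of genes of the translation machinery. The stretches cover 60 bases before to 20 bases after the start, from RefSeq, build GRCm38.p6, 5′ to 3′ on the gene's strand, with a run of at least 8 C or T bases near the start in capitals.
Nop56 (host of Snord57), chr2:130274352-130274431, plus strand: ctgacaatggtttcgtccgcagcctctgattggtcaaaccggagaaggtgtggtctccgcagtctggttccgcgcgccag
Rps12 (host of Snora33), chr10:23787190-23787269, minus strand: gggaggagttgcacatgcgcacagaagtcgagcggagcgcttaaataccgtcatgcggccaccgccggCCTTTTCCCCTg
Tpt1 (host of Snora31), chr14:75845196-75845275, plus strand: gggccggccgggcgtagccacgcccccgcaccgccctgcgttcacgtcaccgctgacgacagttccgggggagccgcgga
Rpl13a (host of 4 box C/D RNAs), chr7:45128726-45128805, minus strand: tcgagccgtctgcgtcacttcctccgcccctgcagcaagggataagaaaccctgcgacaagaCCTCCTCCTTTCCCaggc

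Rps12 and Rpl13a had such a run, of 11 and 14 bases, and Nop56 and Tpt1 had none of 8 or more. Within 20 bases of the start, on the gene's strand, a run of 8 or more was found in 14 of 37 host genes in the promoter table (37.8%) and in 20.8% of all 27025 genes there. The motif CACGTG, bound by MYC and related factors and the same on both strands, was found in the window from 250 bases before to 50 after the start in 8 of 37 hosts (21.6%) and in 7.24% of all genes. It was searched apart from the runs and could overlap them. A match describes these letters only.

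Transcripts of genes for the proteins that bind, assemble and trim these RNAs had mostly higher means in KO, and 0 of them passed the test. The proteins themselves were not measured. Of the 4 box C/D core protein genes 3 were higher, with Fbl (fibrillarin, the methyltransferase) at 10.48 ± 0.31 in KO pools and 10.30 ± 0.33 in WT pools. Of the 4 box H/ACA core protein genes 3 were higher, with Dkc1 (dyskerin, the pseudouridine synthase) at 8.57 ± 0.38 in KO pools and 8.47 ± 0.26 in WT pools. Of 20 genes of assembly and Cajal body factors 19 were measured, 15 of them higher, with a median difference of 0.15. Of 10 genes of RNA end processing factors 8 were higher, with a median of 0.13. At an unadjusted limma p under 0.05, 3 assembly factor genes were higher and 0 lower, where 2.25% of all genes were higher. Of all genes 48.7% had higher means in KO by any size, and of the 7393 genes within the members' middle range of level 55.7% did, with a median of 0.03.

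Those 3 were Tgs1, Rpap3 and Ncbp1. Tgs1, which turns the cap of independently transcribed small RNAs into its trimethylated form, was at 8.10, 7.68, 7.88 and 8.05 in KO pools against 7.78, 7.16, 7.63 and 7.52 in WT pools, a difference of 0.41 (SE 0.15). Rpap3, a subunit of the chaperone complex that builds box C/D particles, averaged 6.23 ± 0.21 in KO pools and 5.87 ± 0.15 in WT pools (0.36, SE 0.13). Ncbp1, the large subunit of the nuclear cap-binding complex, averaged 7.95 ± 0.16 in KO pools and 7.64 ± 0.19 in WT pools (0.31, SE 0.13). All 3 overlapped between groups, with limma's adjusted p at 0.972 for each.

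Papd5, a poly(A) polymerase that marks ends of small RNAs for trimming, was at 7.99, 8.40, 8.09 and 8.01 in KO pools against 7.96, 7.73, 7.80 and 7.89 in WT pools. All KO pools lay above all WT pools, by a gap smaller than the SD of either group, with a difference of 0.27 (SE 0.12, limma adjusted p = 0.972), or 0.18 without KO pool 2. The same order of pools was found in 1.09% of all genes, and Papd5 was named for its large moderated t. Coil, the scaffold protein of Cajal bodies, differed by 0.34 (SE 0.16), which was 0.19 without KO pool 3. Phax, an export adaptor of capped small RNAs, differed by 0.31 (SE 0.17), which was 0.17 without WT pool 2. WT pool 2 was lowest among the WT pools in the assembly list, with a mean deviation of -0.27, where KO pool 3 was highest at 0.25.

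In a wider list of host genes, 68 were measured, 27 higher and 41 lower in KO, with a median of -0.04. Meg3, an imprinted non-coding gene upstream of a large box C/D cluster, was at 6.02, 7.08, 5.88 and 6.05 in KO pools against 7.07, 7.55, 6.74 and 7.51 in WT pools. KO pools 1, 3 and 4 lay below all WT pools and KO pool 2 among them, with a difference of -0.96 (SE 0.27, limma adjusted p = 0.972), 1.94-fold lower. Snrpn, the imprinted gene whose transcript extends into the Snord116 cluster, averaged 5.05 ± 0.31 in KO pools and 5.55 ± 0.21 in WT pools (-0.49, SE 0.17, limma adjusted p = 0.972). Mrpl40 differed by 0.33 (SE 0.14), Snhg11 by -0.27 (SE 0.12) and 1500012F01Rik, an older symbol of Zfas1, by -0.28 (SE 0.13), the last being -0.17 without KO pool 4. No host gene of this list had groups fully apart.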

How the data were processed

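Expression was measured on Affymetrix arrays, 1 per pool, in 4 KO and 4 WT pools. Per the labels' protocols, RNA from a column kit was amplified by single primer isothermal amplification. Per the submitters' processing notes, RMA in Affymetrix Expression Console 1.3 was used, which makes distributions alike on all arrays. The deposited values are log2 levels. The authors' deposited table also gives a log2 ratio of KO over WT, a signed fold, that is a score below 0 for genes lower in KO, and an unadjusted p-value. The sources used here do not state a genome build or annotation release for the probe sets.

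KO minus WT was fitted over the 23586 probe sets with 1 symbol with lmFit and eBayes of limma 3.58.1 under R 4.3.3, without covariates, and p was adjusted by Benjamini-Hochberg over all of them with a threshold of 0.05. Exact 2-sided permutation tests ran over all 70 assignments of pools. Nothing states whether pools were separate sorts, so p-values concern these pools only. The limma fit draws each gene's variance toward that of all genes, with 4.70 of 10.70 degrees of freedom from this prior. For genes of wide spread, as most members are, limma's SE is therefore smaller than their own pools alone give. For genes of narrow spread, as most measured hosts are, it is larger. The exact permutation p does not use this prior. The number of arrays limits the precision. The fit was tested on simulated data.

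Hosts were found by containment in the RefSeq gene table of GRCm38.p6, used for names, lengths and positions of genes and promoters only. The members and lists were chosen with earlier results of these data known. Named members were the 5 per class and direction with the smallest p (3 for Cajal body RNAs), the 3 per class with the largest residual SD, and the Rpl13a, U17, U8 and Snord116 RNAs. From the protein and the host lists the 6 with the largest moderated t were named. Other genes were named after their values were seen. A few genes stay in the counts and medians but are not reported here singly. Alternatives were another normalization, centring, filters on dim probe sets, other row sets, array weights, another variance prior, a replicate block and each pool left out.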

Additional observations from a re-analysis of the deposited data

Results flagged for a closer look

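In 5 of 98 groups of 4 pools, 1 pool's gap to the nearest other, divided by the range of the group, exceeded Dixon's 95% limit for 4 values. Chance gives about 1 in 20. Snord57 was at 7.28 in WT pool 1, where the other WT pools were between 8.40 and 8.60. Coil was at 6.79 in KO pool 3, where the other KO pools were between 6.13 and 6.24. Meg3 was at 7.08 in KO pool 2, where the other KO pools were between 5.88 and 6.05. Phax was at 7.47 in KO pool 2, where the other KO pools were between 7.96 and 8.05. Rpap3 was at 5.64 in WT pool 2, where the other WT pools were between 5.93 and 5.96.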

How the results depend on the processing

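No member passed in limma under any of 17 alternatives, and over all probe sets the count was 0 in 17 of 18, the authors' deposited p-values after adjustment included, with 997 probe sets under 0.05 before it. The exception was the replicate block, with 2 calls, neither a member. The numbers were not taken as pairs, since the labels state no litter, day or batch. Yet same-numbered residuals correlated at 0.29, 0.21, 0.30 and 0.06, while other pairs of KO and WT pools ran from -0.22 to 0.03. Every pool correlated best with its own number, and what same-numbered pools shared was not tested. The block changed no other call. The count of members lower in KO was 44 to 50 with 1 pool left out and 51 with array weights. With dim probe sets left out it was 49 of 61 and 39 of 48. Gene medians stayed below 0 throughout. With arrays centred on their medians they were nearer to 0, at -0.07 for box H/ACA RNAs and -0.18 for box C/D RNAs. Without centring these were -0.12 and -0.22. By probe set, the box C/D median turned to 0.02 without WT pool 1 and 0.03 without WT pool 2, and was -0.23 without probe sets below the 25th percentile of level. The box H/ACA median by probe set was -0.03 without KO pool 3. With array weights the difference of Snora21 was -0.00512 and that of Snora30 -0.0538, the opposite sign. With 1 pool left out, the difference ranged from -0.10 to 0.33 for Snora21, -0.41 to 0.32 for Snora30, -0.41 to 0.27 for Snora19, -0.26 to 0.19 for Snord32a, -0.33 to 0.0508 for Snora73b, -0.0451 to 0.39 for Snord15b and -0.18 to 0.0369 for Snord34. The cause was not tested. The other 689 of 705 single-gene values kept their direction and side.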
